A study of Mus musculus with 30 samples.

Results

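The genes described here are 40 factors that build ribosomes, measured in heart RNA after an acute myocardial infarction (MI) in mice. They were taken from a list of symbols, with no threshold on the values measured here. That list was chosen with earlier results of these data known. All 40 matched 1 gene identifier each among the 43629 in the count files. The mice were wild-type C57BL/6J. The MI groups had a thoracotomy under isoflurane, removal of the pericardium and ligation of a coronary artery on day 0, and their hearts were taken at day 2, 4 or 7. The sham groups had the same operation without the ligation and were taken at the same days. Each of the 6 groups held 5 libraries, 30 in all. The labels name murine heart as the tissue without giving the part of the heart, the sex or the age of the mice, and they number the replicates without saying that each is a separate animal. The p-values therefore measure the spread between these samples, which may be technical.

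Ribosomes are assembled mainly in the nucleolus. RNA polymerase I transcribes the ribosomal DNA into a long precursor RNA, which small nucleolar ribonucleoproteins (snoRNPs) modify at many sites. Box C/D snoRNPs guide 2′-O-methylation and box H/ACA snoRNPs guide the change of uridine to pseudouridine. The small-subunit processome folds and cleaves the part of the precursor that becomes the 40S subunit, and other factors, among them the PeBoW complex, process the part that becomes the 60S subunit. Many of these genes are known as targets of the transcription factor Myc and are raised in growing or dividing cells. In the heart the pathway is known for its part in the growth of cardiomyocytes under load, and infarcted tissue also gains leukocytes and fibroblasts that divide.

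Libraries held 7841930 to 14070017 counts, with 18668 to 20905 genes detected. Levels are given as scaled CPM, that is, CPM with each library total multiplied by a composition factor (TMM, over all 30 libraries), and differences as log2 fold changes of MI over sham with their standard errors (SE). A gene was called where its Benjamini-Hochberg adjusted p, over all genes tested in edgeR's quasi-likelihood test, was under 0.05. Cardiomyocyte genes were abundant in every library, with 8 markers summing to 35412 to 51566 scaled CPM in MI and 67593 to 92983 scaled CPM in sham libraries over the 3 days. A set of 7 libraries held transcripts of other tissues. Lung genes (Sftpc and Scgb1a1) summed to at least 50 CPM in MI day 7 replicate 2, sham day 4 replicates 2 and 3 and sham day 7 replicates 1, 2 and 3, and the fast skeletal muscle gene Myh1 read 288 CPM in MI day 7 replicate 4. In MI libraries 4 adipocyte markers summed to 6.08 to 133.6 scaled CPM at day 4, to 77.1 and 397 in the 2 libraries of day 7 named here and to 119 to 147 in the other 3. In sham libraries they summed to 257 and 582 in the 2 named of day 4 and 15.5 to 37.3 in the other 3, and to 216 to 454 in the 3 named of day 7 and 79.8 to 85.2 in the other 2, so that leaving out the 7 libraries removes the highest fat signal but not all of it. Results at days 4 and 7 are therefore also given without them. Day 2 libraries carry another run number in the labels than those of days 4 and 7, so that for levels set across day 2 and the later days, day and run cannot be told apart. Each difference of MI from sham lies within a run number, but its change from day 2 to a later day crosses it.

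Ribosome biogenesis factors were mostly higher in MI than in sham hearts at day 2. At day 7 the members' shares called higher and lower both lay below those of all genes tested. Fewer members were called higher at day 4 than at day 2, but the test of the change between these days called 0 of the 40. At day 2, 24 of the 40 members were called higher and 1, Polr1a, lower, where 24.1% of all 14524 genes tested were called higher and 22.2% lower. The median log2 fold change was 0.34 over the members and -0.0051 over all genes tested. At day 4, 17 members were called higher and Polr1a again lower, where 27.5% of all genes tested were higher and 25.2% lower (52.7% in all), with a median of 0.19 over the members and 0.0061 over all genes. At day 7, 4 members were higher (Npm1, Nop58, Nhp2 and Gnl3) and 6 lower (Polr1a, Dkc1, Rrp9, Bysl, Nob1 and Grwd1), where 28.4% of all genes were higher and 26.6% lower (55% in all). The median over the members was then -0.046, against 0.012 over all genes. With library totals alone in place of TMM factors, the median of all genes moved to 0.18 at day 4 and 0.21 at day 7. The members' medians then read 0.37 and 0.15, so that the sign at day 7 flips, and the split of calls was 27 higher and 0 lower at day 4 and 9 higher and 2 lower at day 7. Over all genes that scaling called 38.6% higher and 15.6% lower at day 4 and 39.8% higher and 16.8% lower at day 7, so that the members' share called higher at day 7 lay below that of all genes. Relative to the median of all genes the members stood at -0.058 with TMM factors and -0.055 with totals alone at day 7.

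All MI libraries lay above all sham libraries in 14 of the 40 members at day 2, 12 at day 4 and 0 at day 7, where 14.5%, 19.3% and 20.3% of all genes tested did so. All MI libraries lay below all sham libraries in 0, 1 and 4 members, where 15.7%, 18% and 20.3% of all genes did. Of the 40 members, 16 were called higher at both day 2 and day 4 and 4 of these also at day 7, while 11 were called at no day. Of the 13953 genes tested at all 3 days, 18.4% were called higher at days 2 and 4, 15.4% at all 3 days, and 25.9% at no day. In bulk tissue, fewer cells of a type and less RNA per cell cannot be told apart, and this holds for every difference below. Without the libraries that held other tissue, day 4 kept 5 MI and 3 sham libraries and gave 12 members higher and 1 lower, where 26.9% of all genes were higher and 23.5% lower. Day 7 kept 3 MI and 2 sham libraries and gave 2 higher and 3 lower, where 18.6% of all genes were higher and 14.8% lower. Without MI day 7 replicate 4 alone, 2 members were higher and 6 lower at day 7, where 3858 of 14611 genes were higher and 3566 lower. With MI replicate 2 of day 7 left out instead, 4 members were higher and 4 lower, where 3910 of 14571 genes were higher and 3623 lower. The same 4 and 4 were counted without sham replicate 5 of day 7, where 3827 of 14761 genes were higher and 3581 lower.

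**Figure D1:**
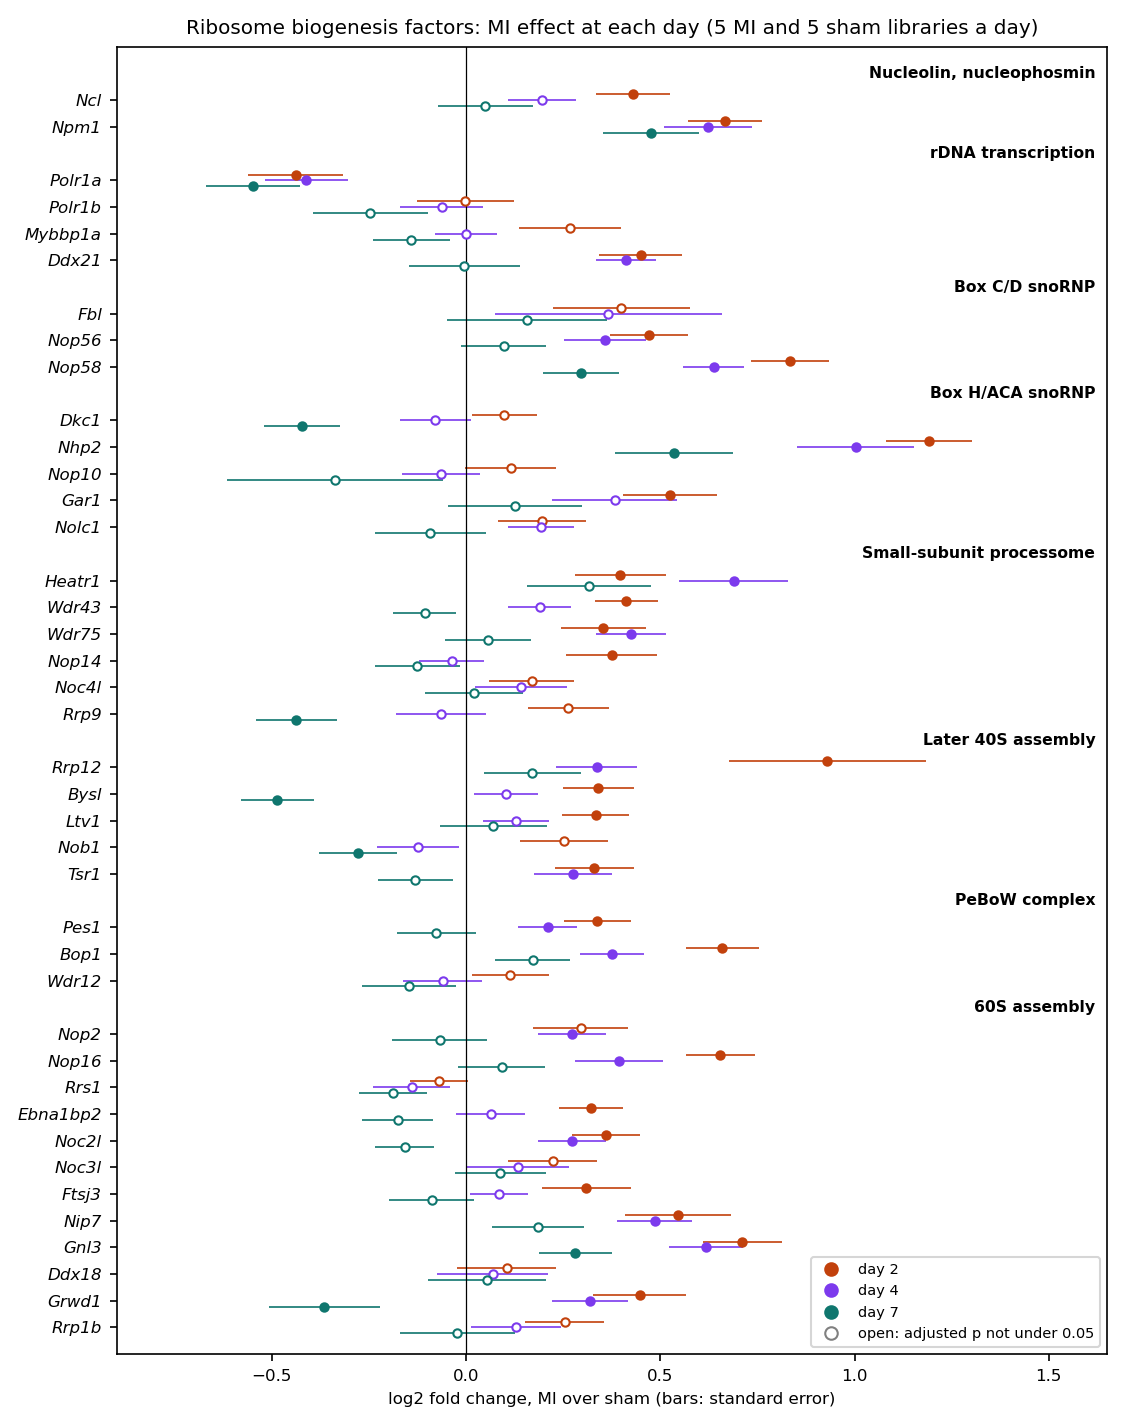
Log2 fold change of MI over sham for each of the 40 members at days 2, 4 and 7, in 8 groups by role, with standard errors as bars and filled points where the adjusted p was under 0.05. Most day 2 points lie right of 0, Polr1a lies left of it at all 3 days, and the day 7 point lies left of the day 2 point in 40 of 40 members.

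A sequence feature was read from the promoters, since Myc binds the E-box CACGTG. That motif reads the same on both strands. RefSeq windows from 250 bases before to 50 bases after a start in GRCm38.p6 were at hand for 35 members, and 7 of them (20%) held the motif, against 2187 of 27025 genes (8.09%) and 6 of 57 cytosolic ribosomal protein genes (10.5%). The 27025 genes take in more than the 15537 tested here, so the sets are unlike in expression, and the difference in share was not tested. A match is a description of the window and no evidence of binding. The 7 members are Grwd1, Ltv1, Mybbp1a, Nop2, Pes1, Tsr1 and Wdr43. For the 5 whose windows hold 12 bases on each side, 30 bases are shown on the gene's strand with the E-box in capitals, to let the surroundings of the motif be compared.
Ltv1: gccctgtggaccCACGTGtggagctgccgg
Nop2: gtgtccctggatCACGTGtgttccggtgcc
Pes1: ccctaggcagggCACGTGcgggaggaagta
Tsr1: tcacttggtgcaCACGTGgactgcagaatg
Wdr43: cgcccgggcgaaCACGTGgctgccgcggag
The Ltv1 stretch is chr10:13193092-13193121 on the minus strand. The others are on the plus strand, Nop2 at chr6:125131811-125131840, Pes1 at chr11:3963965-3963994, Tsr1 at chr11:74898092-74898121 and Wdr43 at chr17:71616220-71616249. The motif begins 60 bases before the RefSeq start of Nop2 and 3 to 29 bases after that of the other 4 genes. Of the 7 members, 5 were called higher at day 2 (Grwd1, Ltv1, Pes1, Tsr1 and Wdr43) and 4 at day 4 (Grwd1, Nop2, Pes1 and Tsr1). These counts stand beside 24 and 17 of all 40 members and 24.1% and 27.5% of all genes called higher at days 2 and 4, and nothing is read from so few genes. At day 7 Grwd1 was called lower and the others were not called, and Mybbp1a was called at no day.

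The abundant nucleolar proteins Ncl and Npm1 were higher in MI hearts at day 2, and Npm1 also at days 4 and 7. Coordinates of genes are those of GENCODE vM21 in GRCm38. Ncl (ENSMUSG00000026234, chromosome 1, 86344719 to 86359400, minus strand) encodes nucleolin, which binds precursor rRNA and chromatin of the ribosomal DNA. At day 2 Ncl read 319, 309, 289, 388 and 281 scaled CPM in MI libraries, against 219, 261, 229, 254 and 231 in sham libraries. At day 4 Ncl read 357, 348, 313, 365 and 395 scaled CPM in MI libraries, against 293, 300.3, 299.8, 353 and 321 in sham libraries. At day 7 Ncl read 272, 308, 410.5, 329 and 269 scaled CPM in MI libraries, against 326, 272, 269.6, 320.4 and 340.0 in sham libraries. The groups did not overlap at day 2 and overlapped at days 4 and 7. Log2 fold changes were 0.43 ± 0.094 (SE, adjusted p = 0.00174) at day 2, 0.20 ± 0.087 (SE, adjusted p = 0.0704) at day 4 and 0.050 ± 0.12 (SE, adjusted p = 0.749) at day 7. Per kilobase of exon Ncl averaged 30.2 scaled CPM, below Nop10 with 42.5 and Nhp2 with 30.7 and above every other member. The gene spans 3 snoRNA genes.

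Npm1 (ENSMUSG00000057113, chromosome 11, 33152287 to 33163206, minus strand) encodes nucleophosmin, a chaperone of ribosomal proteins and histones. At day 2 Npm1 read 105, 100.2, 84.3, 91.1 and 90.7 scaled CPM in MI libraries, against 49.7, 59.99, 71.8, 57.03 and 63.3 in sham libraries. At day 4 Npm1 read 34.4, 36.1, 32.5, 40.1 and 30.5 scaled CPM in MI libraries, against 22.7, 22.4, 17.9, 22.7 and 28.3 in sham libraries. At day 7 Npm1 read 40.1, 29.2, 41.2, 31.9 and 31.6 scaled CPM in MI libraries, against 24.5, 24.5, 30.5, 22.01 and 23.1 in sham libraries. The MI libraries lay above all sham libraries at days 2 and 4 and overlapped them at day 7. Npm1 rose at each day, by 0.67 ± 0.095 (SE, adjusted p = 5.33e-05), 0.62 ± 0.11 (SE, adjusted p = 0.000323) and 0.48 ± 0.12 (SE, adjusted p = 0.00529) on the log2 scale at days 2, 4 and 7. Its level in both arms was lower at days 4 and 7 than at day 2, which crosses the run number. The processed pseudogene Gm14681 matches the Npm1 transcript with 99.1% identity over 53.5% of its length, and it held 73.9 CPM on average against 45.4 CPM for Npm1. Gm14681 read 62.8 to 71.4, 83.6 to 118 and 86.9 to 123 scaled CPM in MI libraries at days 2, 4 and 7, against 40.5 to 47.5, 53.9 to 69.7 and 54.001 to 82.2 in sham libraries. In both arms, then, the gene was lower and its copy higher at days 4 and 7 than at day 2. How reads were divided between the gene and its copies is not given in the sources used here, so the level of Npm1 is uncertain. With the counts of its near-copies added, the log2 fold changes were 0.64, 0.64 and 0.55 at days 2, 4 and 7.

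**Figure D2:**
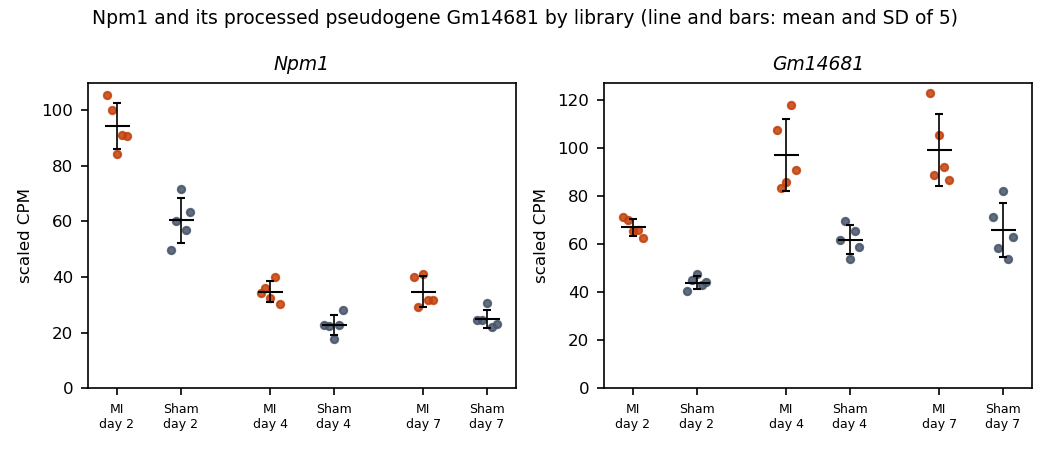
Scaled CPM of Npm1 and of its processed pseudogene Gm14681 in each library, MI left of sham at each day, with the mean and SD of 5 libraries. Both are higher in MI than in sham at each day, and from day 2 to days 4 and 7 Npm1 is lower while Gm14681 is higher in both arms.

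The factors of ribosomal DNA transcription went in both directions. Polr1a was lower in MI hearts at all 3 days, Ddx21 was higher at days 2 and 4, and Polr1b and Mybbp1a were not called at any day. Polr1a (ENSMUSG00000049553, chromosome 6, 71909053 to 71984935, plus strand) encodes the largest subunit of RNA polymerase I. At day 2 Polr1a read 36.8, 36.9, 40.2, 53.6 and 32.6 scaled CPM in MI libraries, against 60.3, 56.4, 45.4, 60.2 and 53.2 in sham libraries. At day 4 Polr1a read 41.3, 48.5, 47.9, 32.5 and 48.97 scaled CPM in MI libraries, against 60.9, 51.7, 58.8, 60.3 and 62.9 in sham libraries. At day 7 Polr1a read 29.2, 38.9, 38.8, 36.9 and 44.5 scaled CPM in MI libraries, against 54.8, 48.9, 46.3, 60.3 and 64.8 in sham libraries. MI replicate 4 overlapped the sham range at day 2, and the groups did not overlap at days 4 and 7. Polr1a fell, with log2 fold changes of -0.44 ± 0.12 (SE, adjusted p = 0.00886), -0.41 ± 0.11 (SE, adjusted p = 0.00457) and -0.55 ± 0.12 (SE, adjusted p = 0.00171) at days 2, 4 and 7. With library totals alone it was not called at day 4 (-0.24, adjusted p = 0.0857). Polr1b, the second largest subunit, had log2 fold changes of -0.0022 ± 0.13, -0.062 ± 0.11 and -0.25 ± 0.15 (SE), none of them past the threshold.

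Ddx21 is an RNA helicase that acts in both RNA polymerase I transcription and precursor processing. At day 2 Ddx21 read 80.8, 85.2, 71.2, 110.0 and 83.3 scaled CPM in MI libraries, against 68.01, 67.3, 55.9, 69.8 and 59.1 in sham libraries. At day 4 Ddx21 read 88.9, 93.6, 95.6, 87.2 and 102 scaled CPM in MI libraries, against 79.3, 65.2, 63.9, 73.8 and 72.6 in sham libraries. At day 7 Ddx21 read 51.7, 74.6, 82.3, 87.6 and 61.8 scaled CPM in MI libraries, against 79.2, 59.8, 59.9, 73.3 and 86.2 in sham libraries. MI and sham libraries did not overlap at days 2 and 4 and overlapped widely at day 7. The log2 fold change was 0.45 ± 0.11 (SE, adjusted p = 0.00329) at day 2, 0.41 ± 0.078 (SE, adjusted p = 0.000454) at day 4 and -0.0047 ± 0.14 (SE, adjusted p = 0.981) at day 7. Mybbp1a, a nucleolar protein that binds RNA polymerase I factors and restrains ribosomal DNA transcription, had the smallest difference of this group at day 4. At day 2 Mybbp1a read 82.2, 76.8, 69.6, 113 and 75.3 scaled CPM in MI libraries, against 75.04, 78.7, 59.5, 79.5 and 58.6 in sham libraries. At day 4 Mybbp1a read 76.3, 77.6, 83.2, 71.4 and 89.5 scaled CPM in MI libraries, against 85.8, 73.6, 76.6, 80.6 and 85.4 in sham libraries. At day 7 Mybbp1a read 54.8, 73.2, 68.99, 76.6 and 61.03 scaled CPM in MI libraries, against 76.1, 70.6, 65.8, 72.4 and 83.1 in sham libraries. Its groups overlapped at every day, with log2 fold changes of 0.27 ± 0.13, -0.00060 ± 0.079 and -0.14 ± 0.10 (SE).

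Of the box C/D snoRNP proteins, Nop56 and Nop58 rose at days 2 and 4 and Nop58 also at day 7, whereas the methyltransferase Fbl was not called. Nop58 (ENSMUSG00000026020, chromosome 1, 59684971 to 59719044, plus strand) is a core protein of these particles. At day 2 Nop58 read 53.5, 54.6, 45.1, 55.2 and 54.1 scaled CPM in MI libraries, against 32.1, 29.8, 31.95, 32.6 and 22.8 in sham libraries. At day 4 Nop58 read 45.2, 46.9, 40.3, 45.2 and 44.1 scaled CPM in MI libraries, against 29.5, 30.6, 25.6, 29.3 and 28.9 in sham libraries. At day 7 Nop58 read 31.9, 34.1, 32.4, 39.4 and 28.4 scaled CPM in MI libraries, against 24.9, 25.5, 26.7, 28.5 and 29.7 in sham libraries. MI libraries lay above all sham libraries at days 2 and 4, and only partly so at day 7. Nop58 rose by 0.83 ± 0.10 (SE, adjusted p = 1.2e-05), 0.64 ± 0.078 (SE, adjusted p = 9.33e-06) and 0.30 ± 0.10 (SE, adjusted p = 0.0201) on the log2 scale. The day 7 call was lost without MI replicate 4 or sham replicate 1 of that day (0.23 to 0.26, adjusted p = 0.0617 to 0.0623), and the log2 fold change was 0.071 without the libraries that held other tissue (adjusted p = 0.768). Nop58 spans 4 snoRNA genes.

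Nop56, the partner of Nop58 in the core, spans 5 snoRNA genes. At day 2 Nop56 read 26.8, 31.4, 21.3, 27.7 and 28.8 scaled CPM in MI libraries, against 18.7, 20.1, 21.7, 20.6 and 18.6 in sham libraries. At day 4 Nop56 read 29.1, 24.3, 25.95, 31.6 and 25.8 scaled CPM in MI libraries, against 17.95, 24.4, 22.8, 21.9 and 20.6 in sham libraries. At day 7 Nop56 read 18.9, 19.3, 21.5, 21.2 and 18.8 scaled CPM in MI libraries, against 14.8, 21.4, 19.96, 18.1 and 18.6 in sham libraries. The ranges overlapped at each day, at day 2 through MI replicate 3. Log2 fold changes were 0.47 ± 0.10 (SE, adjusted p = 0.00155), 0.36 ± 0.11 (SE, adjusted p = 0.0108) and 0.10 ± 0.11 (SE, adjusted p = 0.472) at days 2, 4 and 7. Fbl encodes fibrillarin, the enzyme that transfers the methyl group. At day 2 Fbl read 3.19, 2.60, 3.28, 3.77 and 3.13 scaled CPM in MI libraries, against 2.25, 2.30, 2.80, 2.11 and 2.84 in sham libraries. At day 4 Fbl read 6.95, 4.92, 3.82, 1.54 and 5.77 scaled CPM in MI libraries, against 3.37, 3.57, 4.04, 3.58 and 3.42 in sham libraries. At day 7 Fbl read 4.33, 4.40, 5.17, 4.25 and 2.75 scaled CPM in MI libraries, against 3.92, 3.48, 3.67, 4.86 and 2.76 in sham libraries. These levels were the lowest of all members, also per kilobase of exon (0.862 scaled CPM on average), and the groups overlapped at every day. Its log2 fold changes of 0.40 ± 0.18, 0.37 ± 0.29 and 0.16 ± 0.21 (SE) had the widest errors at day 4 of the 40 members. Without MI day 4 replicate 4, the lowest library, the day 4 value was 0.59 and was called (adjusted p = 0.0219), and at day 2 Fbl was called with library totals alone (0.49, adjusted p = 0.0300) and by limma voom (0.45, adjusted p = 0.0365).

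Among the box H/ACA proteins, Nhp2 was higher in MI hearts at all 3 days and Gar1 at day 2, and Dkc1 was lower at day 7. Nhp2 (ENSMUSG00000001056, chromosome 11, 51619735 to 51623714, plus strand) is a small core protein of the particle. At day 2 Nhp2 read 52.5, 51.9, 43.5, 44.1 and 46.8 scaled CPM in MI libraries, against 18.7, 18.8, 25.4, 18.1 and 25.3 in sham libraries. At day 4 Nhp2 read 62.9, 45.2, 41.3, 67.7 and 43.5 scaled CPM in MI libraries, against 22.9, 30.7, 23.7, 30.1 and 23.9 in sham libraries. At day 7 Nhp2 read 52.3, 32.6, 33.5, 33.2 and 37.3 scaled CPM in MI libraries, against 24.96, 25.2, 33.2, 24.2 and 22.2 in sham libraries. All MI libraries lay above all sham libraries at days 2 and 4, and sham replicate 3 reached into the MI range at day 7. Nhp2 had the largest increase of the 40 members at each day, with log2 fold changes of 1.19 ± 0.11 (SE, adjusted p = 1.36e-06), 1.003 ± 0.15 (SE, adjusted p = 7.46e-05) and 0.54 ± 0.15 (SE, adjusted p = 0.00876), a fold of 2.28 at day 2. At day 7 the fall of Polr1a (-0.55) was larger in size. Dkc1 (ENSMUSG00000031403, chromosome X, 75095854 to 75109777, plus strand) encodes dyskerin, the pseudouridine synthase of the particle and a subunit of telomerase. At day 2 Dkc1 read 28.5, 31.2, 27.004, 33.9 and 29.3 scaled CPM in MI libraries, against 27.1, 28.3, 31.1, 27.8 and 27.8 in sham libraries. At day 4 Dkc1 read 28.6, 26.8, 24.8, 26.9 and 25.3 scaled CPM in MI libraries, against 25.8, 32.4, 24.3, 29.7 and 29.1 in sham libraries. At day 7 Dkc1 read 17.5, 20.9, 19.2, 21.4 and 22.7 scaled CPM in MI libraries, against 25.5, 24.8, 28.8, 29.4 and 27.6 in sham libraries. The groups overlapped at days 2 and 4, and every MI library lay below every sham library at day 7. Dkc1 fell at day 7 only among the 3 days, with log2 fold changes of 0.10 ± 0.083 (SE, adjusted p = 0.348), -0.079 ± 0.092 (SE, adjusted p = 0.489) and -0.42 ± 0.10 (SE, adjusted p = 0.00242). The day 7 value was -0.54 without the libraries that held other tissue (adjusted p = 0.0541). With library totals alone it was -0.23 and not called (adjusted p = 0.0651).

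Nop10 is the third core protein of the particle. At day 2 Nop10 read 61.4, 69.9, 64.1, 54.2 and 68.2 scaled CPM in MI libraries, against 49.8, 48.4, 74.9, 56.6 and 68.2 in sham libraries. At day 4 Nop10 read 38.4, 40.6, 37.2, 44.4 and 31.01 scaled CPM in MI libraries, against 40.3, 45.6, 35.8, 40.8 and 39.8 in sham libraries. At day 7 Nop10 read 48.6, 30.7, 14.4, 39.6 and 45.5 scaled CPM in MI libraries, against 45.1, 39.4, 62.7, 42.1 and 35.5 in sham libraries. The groups overlapped at each day, and MI replicate 3 of day 7 was the lowest library. Nop10 was not called, with log2 fold changes of 0.11 ± 0.12, -0.064 ± 0.10 and -0.34 ± 0.28 (SE). Gar1, the fourth protein of the mature particle, rose at day 2 (0.53 ± 0.12, SE, adjusted p = 0.00252) and had log2 fold changes of 0.38 ± 0.16 at day 4 and 0.12 ± 0.17 at day 7 (SE). Nolc1, a chaperone of snoRNPs in the nucleolus, had 0.20 ± 0.11, 0.19 ± 0.085 and -0.093 ± 0.14 (SE) and was not called.

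Of 6 members of the small-subunit processome, 4 were called higher at day 2 (Heatr1, Wdr43, Wdr75 and Nop14), 2 at day 4 (Heatr1 and Wdr75) and 0 at day 7, when Rrp9 was lower. Of all genes, 24.1%, 27.5% and 28.4% were called higher at these days and 26.6% lower at day 7. Nothing is read from the counts of so small a group. Heatr1, a subunit that joins early to the precursor RNA, had the largest difference of this group at day 4. At day 2 Heatr1 read 20.4, 22.9, 20.97, 27.6 and 22.1 scaled CPM in MI libraries, against 21.4, 17.1, 16.5, 18.7 and 14.3 in sham libraries. At day 4 Heatr1 read 25.7, 22.99, 24.2, 20.4 and 27.6 scaled CPM in MI libraries, against 18.9, 12.4, 17.7, 11.3 and 15.5 in sham libraries. At day 7 Heatr1 read 18.04, 17.2, 26.5, 19.2 and 17.1 scaled CPM in MI libraries, against 16.3, 17.3, 10.3, 16.9 and 17.8 in sham libraries. MI libraries lay above all sham libraries at day 4, and the ranges overlapped at days 2 and 7. Log2 fold changes were 0.40 ± 0.12 (SE, adjusted p = 0.0120), 0.69 ± 0.14 (SE, adjusted p = 0.000822) and 0.32 ± 0.16 (SE, adjusted p = 0.107). Wdr75 belongs to the subcomplex that links the processome to RNA polymerase I transcription. At day 2 Wdr75 read 31.4, 34.7, 22.7, 32.2 and 33.6 scaled CPM in MI libraries, against 26.2, 26.3, 22.3, 24.8 and 23.2 in sham libraries. At day 4 Wdr75 read 26.3, 24.7, 23.2, 22.8 and 27.8 scaled CPM in MI libraries, against 19.1, 20.7, 17.2, 18.4 and 18.3 in sham libraries. At day 7 Wdr75 read 17.8, 18.9, 22.4, 23.3 and 19.4 scaled CPM in MI libraries, against 17.9, 17.9, 19.7, 18.5 and 23.6 in sham libraries. Its groups were apart at day 4 only, and the log2 fold changes were 0.35 ± 0.11 (SE, adjusted p = 0.0153), 0.43 ± 0.090 (SE, adjusted p = 0.00109) and 0.057 ± 0.11 (SE, adjusted p = 0.682).

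Nop14, a factor of 18S rRNA maturation, rose at day 2 and had the smallest difference of the group at day 4. At day 2 Nop14 read 29.5, 26.2, 26.4, 41.4 and 28.98 scaled CPM in MI libraries, against 22.4, 25.2, 22.9, 25.3 and 23.6 in sham libraries. At day 4 Nop14 read 29.7, 27.3, 27.8, 25.9 and 26.1 scaled CPM in MI libraries, against 26.7, 28.9, 24.8, 30.9 and 30.4 in sham libraries. At day 7 Nop14 read 22.1, 25.3, 28.3, 28.2 and 22.4 scaled CPM in MI libraries, against 28.4, 25.8, 22.9, 27.8 and 32.6 in sham libraries. The groups did not overlap at day 2, with MI replicate 4 highest, and overlapped at days 4 and 7. Its log2 fold changes were 0.37 ± 0.12 (SE, adjusted p = 0.0168), -0.037 ± 0.084 (SE, adjusted p = 0.732) and -0.13 ± 0.11 (SE, adjusted p = 0.350). Rrp9 (ENSMUSG00000041506, chromosome 9, 106475963 to 106485424, plus strand) encodes a protein of the U3 snoRNP, which guides cleavage of the precursor. At day 2 Rrp9 read 28.2, 25.1, 22.03, 29.5 and 28.03 scaled CPM in MI libraries, against 23.5, 21.6, 26.8, 19.1 and 21.6 in sham libraries. At day 4 Rrp9 read 23.2, 22.002, 21.9, 24.2 and 18.04 scaled CPM in MI libraries, against 22.8, 25.9, 20.3, 27.3 and 19.1 in sham libraries. At day 7 Rrp9 read 15.9, 16.4, 15.2, 17.7 and 16.6 scaled CPM in MI libraries, against 21.4, 17.9, 23.5, 24.2 and 23.6 in sham libraries. The ranges overlapped at days 2 and 4, and at day 7 every MI library lay below every sham library. Rrp9 fell at day 7, -0.44 ± 0.10 (SE, adjusted p = 0.00289), after 0.26 ± 0.11 (SE, adjusted p = 0.0518) at day 2 and -0.064 ± 0.12 (SE, adjusted p = 0.660) at day 4. With library totals alone the day 7 value was -0.24 and not called (adjusted p = 0.0553). Wdr43, another subunit of the Wdr75 subcomplex, rose at day 2 (0.41 ± 0.081, SE, adjusted p = 0.000743) and had log2 fold changes of 0.19 ± 0.081 at day 4 and -0.11 ± 0.081 at day 7 (SE). Noc4l, a partner of Nop14, was not called (0.17 ± 0.11, 0.14 ± 0.12 and 0.019 ± 0.13, SE).

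The factors of later 40S assembly were higher at day 2 in 4 of 5 cases (Rrp12, Bysl, Ltv1 and Tsr1) and at day 4 in 2 (Rrp12 and Tsr1), and Bysl and Nob1 were lower at day 7. Of all genes, 24.1% and 27.5% were called higher at days 2 and 4 and 26.6% lower at day 7. Nothing is read from the counts of so few members. Rrp12, an export factor of pre-40S particles, had the largest standard error of the 40 members at day 2. At day 2 Rrp12 read 37.8, 25.4, 36.4, 68.4 and 41.95 scaled CPM in MI libraries, against 32.8, 17.8, 18.9, 24.6 and 17.9 in sham libraries. At day 4 Rrp12 read 31.8, 34.8, 30.5, 27.8 and 35.8 scaled CPM in MI libraries, against 29.6, 20.3, 25.2, 28.1 and 25.5 in sham libraries. At day 7 Rrp12 read 22.1, 25.3, 35.3, 32.1 and 26.04 scaled CPM in MI libraries, against 24.96, 22.996, 21.9, 28.4 and 26.8 in sham libraries. MI replicate 4 and sham replicate 1 were the highest of their groups at day 2, and the ranges overlapped at each day. Log2 fold changes were 0.93 ± 0.25 (SE, adjusted p = 0.0104), 0.34 ± 0.10 (SE, adjusted p = 0.0142) and 0.17 ± 0.13 (SE, adjusted p = 0.268). Without the libraries that held other tissue the day 4 value was 0.23 (adjusted p = 0.0912).

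Bysl (ENSMUSG00000023988, chromosome 17, 47599331 to 47611492, minus strand) encodes bystin, which is needed for processing of the pre-40S particle. At day 2 Bysl read 58.6, 56.4, 53.3, 71.7 and 60.7 scaled CPM in MI libraries, against 53.7, 46.2, 48.3, 49.6 and 43.2 in sham libraries. At day 4 Bysl read 49.1, 52.9, 46.8, 48.6 and 47.9 scaled CPM in MI libraries, against 48.4, 52.01, 44.01, 45.7 and 40.6 in sham libraries. At day 7 Bysl read 31.7, 31.2, 27.6, 36.2 and 32.7 scaled CPM in MI libraries, against 45.3, 42.1, 40.03, 47.3 and 48.1 in sham libraries. The ranges overlapped at day 2 through MI replicate 3, overlapped at day 4, and were apart at day 7 with the MI libraries below. Bysl rose at day 2, 0.34 ± 0.091 (SE, adjusted p = 0.00640), had a log2 fold change of 0.10 ± 0.082 (SE, adjusted p = 0.314) at day 4, and fell at day 7, -0.49 ± 0.093 (SE, adjusted p = 0.000631). Nob1 is the endonuclease that makes the final cut at the end of 18S rRNA. At day 2 Nob1 read 30.8, 28.6, 22.7, 35.3 and 32.5 scaled CPM in MI libraries, against 29.4, 25.9, 25.97, 23.96 and 22.4 in sham libraries. At day 4 Nob1 read 25.3, 28.1, 22.6, 27.3 and 21.4 scaled CPM in MI libraries, against 30.1, 27.04, 24.5, 31.6 and 23.9 in sham libraries. At day 7 Nob1 read 20.9, 19.6, 20.1, 22.6 and 18.4 scaled CPM in MI libraries, against 27.6, 20.8, 23.5, 25.1 and 25.96 in sham libraries. The ranges overlapped at each day. Nob1 had log2 fold changes of 0.25 ± 0.11 (SE, adjusted p = 0.0796), -0.12 ± 0.10 (SE, adjusted p = 0.341) and -0.28 ± 0.10 (SE, adjusted p = 0.0295), and fell at day 7. That call was lost without any 1 of MI replicates 2 and 5 and sham replicates 1, 4 and 5 of day 7 (adjusted p = 0.0521 to 0.0822), and without the libraries that held other tissue (-0.38, adjusted p = 0.121). It was also lost with library totals alone (-0.080, adjusted p = 0.501).

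Tsr1, a blocking factor on the pre-40S particle, rose at day 2 (0.33 ± 0.10, SE, adjusted p = 0.0156) and day 4 (0.27 ± 0.10, SE, adjusted p = 0.0317) and had -0.13 ± 0.10 (SE) at day 7. The day 4 call was lost without any 1 of MI replicates 1, 2 and 3 and sham replicates 2, 3 and 5 of that day (0.23 to 0.28, adjusted p = 0.0501 to 0.0835), and without the libraries that held other tissue (0.16, adjusted p = 0.245). Ltv1, needed for export and maturation of pre-40S particles, rose at day 2 (0.33 ± 0.087, SE, adjusted p = 0.00583) and had 0.13 ± 0.084 and 0.070 ± 0.14 (SE) at days 4 and 7.

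Of the PeBoW complex, which is needed for 28S and 5.8S rRNA maturation, Pes1 and Bop1 rose at days 2 and 4 and Wdr12 was not called. Bop1 had the largest difference at day 4. At day 2 Bop1 read 43.4, 44.3, 36.7, 52.6 and 45.2 scaled CPM in MI libraries, against 28.8, 31.03, 26.3, 27.9 and 28.7 in sham libraries. At day 4 Bop1 read 34.9, 34.2, 33.9, 40.3 and 37.02 scaled CPM in MI libraries, against 28.5, 27.96, 25.3, 30.7 and 27.96 in sham libraries. At day 7 Bop1 read 30.2, 30.9, 32.95, 31.9 and 25.1 scaled CPM in MI libraries, against 25.4, 25.7, 24.3, 28.2 and 30.2 in sham libraries. MI libraries lay above all sham libraries at days 2 and 4 and overlapped them at day 7. Log2 fold changes were 0.66 ± 0.094 (SE, adjusted p = 5.07e-05), 0.38 ± 0.082 (SE, adjusted p = 0.00136) and 0.17 ± 0.10 (SE, adjusted p = 0.147). Pes1 encodes pescadillo, the scaffold of the complex. At day 2 Pes1 read 36.9, 40.6, 33.99, 44.6 and 34.8 scaled CPM in MI libraries, against 30.1, 32.2, 30.9, 30.2 and 30.1 in sham libraries. At day 4 Pes1 read 46.6, 43.2, 46.3, 47.6 and 50.6 scaled CPM in MI libraries, against 38.9, 41.1, 41.8, 43.7 and 38.9 in sham libraries. At day 7 Pes1 read 37.7, 41.1, 37.1, 46.3 and 40.7 scaled CPM in MI libraries, against 44.8, 36.01, 40.8, 41.3 and 50.5 in sham libraries. Its groups were apart at day 2 and overlapped at days 4 and 7. Pes1 had log2 fold changes of 0.34 ± 0.087 (SE, adjusted p = 0.00511), 0.21 ± 0.075 (SE, adjusted p = 0.0292) and -0.077 ± 0.10 (SE, adjusted p = 0.543). The day 4 call was lost without MI replicate 5, sham replicate 1 or sham replicate 5 of that day (0.18 to 0.19, adjusted p = 0.0667 to 0.0731), and without the libraries that held other tissue (0.23, adjusted p = 0.0578).

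Wdr12 is the third subunit of PeBoW. At day 2 Wdr12 read 17.02, 15.5, 16.3, 17.8 and 16.95 scaled CPM in MI libraries, against 14.8, 14.05, 18.97, 15.9 and 14.8 in sham libraries. At day 4 Wdr12 read 15.8, 18.2, 16.1, 19.6 and 18.04 scaled CPM in MI libraries, against 17.6, 20.5, 16.98, 20.2 and 17.1 in sham libraries. At day 7 Wdr12 read 12.1, 15.99, 14.05, 16.5 and 15.2 scaled CPM in MI libraries, against 15.3, 13.5, 18.2, 17.3 and 17.4 in sham libraries. The groups overlapped at each day, with log2 fold changes of 0.11 ± 0.10, -0.061 ± 0.10 and -0.15 ± 0.12 (SE). Its transcript and that of Nip7 match stretches of the noncoding RNA Snhg14, which averaged 34.1 CPM, and the processed pseudogene Gm4879 held 3.04 CPM. With all such near-copies added to it, Wdr12 read -0.43 at day 4 (adjusted p = 0.000704), and with pseudogene copies alone -0.10 (adjusted p = 0.427).

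The 12 members of 60S assembly gave 7 higher at day 2, 6 at day 4 and 1 at day 7 (Gnl3), when Grwd1 was lower. Of all genes, 24.1%, 27.5% and 28.4% were called higher at these days and 26.6% lower at day 7. Gnl3 (ENSMUSG00000042354, chromosome 14, 31012433 to 31019152, minus strand) encodes nucleostemin, a GTPase of the nucleolus known from proliferating and stem cells, and spans 3 snoRNA genes. At day 2 Gnl3 read 49.7, 42.7, 46.7, 63.4 and 52.2 scaled CPM in MI libraries, against 29.98, 33.2, 34.8, 28.7 and 31.3 in sham libraries. At day 4 Gnl3 read 38.2, 39.2, 33.9, 39.7 and 32.04 scaled CPM in MI libraries, against 24.9, 22.7, 20.6, 27.4 and 24.9 in sham libraries. At day 7 Gnl3 read 32.6, 27.3, 35.3, 34.6 and 29.5 scaled CPM in MI libraries, against 26.1, 23.3, 26.96, 25.9 and 28.4 in sham libraries. All MI libraries lay above all sham libraries at days 2 and 4, and MI replicate 2 lay within the sham range at day 7. Gnl3 rose by 0.71 ± 0.10 (SE, adjusted p = 5.5e-05), 0.62 ± 0.095 (SE, adjusted p = 7.34e-05) and 0.28 ± 0.094 (SE, adjusted p = 0.0215) on the log2 scale. The day 7 call was lost without MI replicate 4, sham replicate 2 or sham replicate 4 of that day (adjusted p = 0.0509 to 0.0555), and without the libraries that held other tissue (0.24, adjusted p = 0.302).

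Grwd1 (ENSMUSG00000053801, chromosome 7, 45825223 to 45830944, minus strand) encodes a WD-repeat protein that binds histones and pre-60S particles. At day 2 Grwd1 read 21.9, 23.4, 17.4, 27.9 and 27.4 scaled CPM in MI libraries, against 19.4, 17.5, 16.2, 17.5 and 17.4 in sham libraries. At day 4 Grwd1 read 19.1, 22.002, 17.6, 19.3 and 17.96 scaled CPM in MI libraries, against 16.05, 16.9, 15.02, 14.8 and 14.98 in sham libraries. At day 7 Grwd1 read 10.2, 9.82, 14.4, 13.7 and 12.7 scaled CPM in MI libraries, against 16.2, 12.003, 15.3, 16.2 and 18.6 in sham libraries. The groups were apart at day 4 and overlapped at days 2 and 7, with 4 of 5 MI libraries above all sham libraries at day 2 and 4 of 5 sham libraries above all MI libraries at day 7. Grwd1 rose at day 2, 0.45 ± 0.12 (SE, adjusted p = 0.00656), and day 4, 0.32 ± 0.10 (SE, adjusted p = 0.0123), and fell at day 7, -0.36 ± 0.14 (SE, adjusted p = 0.0429). The day 7 call was lost without any 1 of MI replicates 1 and 2 and sham replicates 1, 3, 4 and 5 of that day (-0.38 to -0.30, adjusted p = 0.0595 to 0.108). The day 7 value was -0.50 without the libraries that held other tissue (adjusted p = 0.107) and -0.16 with library totals alone (adjusted p = 0.325).

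Nip7 binds precursor rRNA during 60S assembly. At day 2 Nip7 read 33.6, 29.96, 27.4, 29.2 and 33.5 scaled CPM in MI libraries, against 16.96, 17.5, 29.2, 18.7 and 24.6 in sham libraries. At day 4 Nip7 read 27.03, 23.3, 22.7, 26.04 and 20.6 scaled CPM in MI libraries, against 17.6, 17.6, 15.9, 18.3 and 16.8 in sham libraries. At day 7 Nip7 read 26.6, 20.1, 19.8, 21.6 and 23.5 scaled CPM in MI libraries, against 19.03, 18.7, 23.4, 19.4 and 17.1 in sham libraries. The ranges overlapped at day 2 through sham replicate 3, were apart at day 4 and overlapped at day 7. Log2 fold changes were 0.55 ± 0.14 (SE, adjusted p = 0.00426), 0.49 ± 0.10 (SE, adjusted p = 0.000700) and 0.18 ± 0.12 (SE, adjusted p = 0.207). Snhg14 matched both Nip7 and Wdr12 (91.3% and 90.7% identity), so it need not be a copy of either. With Snhg14 and the near-copies added to it, Nip7 read 0.041 at day 2 (adjusted p = 0.721) and -0.20 at day 4 (adjusted p = 0.0605). With pseudogene copies alone it read 0.49 at day 4 (adjusted p = 0.0007). Nop16 is a nucleolar protein of the pre-60S particle. At day 2 Nop16 read 31.4, 31.8, 26.2, 31.8 and 30.9 scaled CPM in MI libraries, against 18.8, 21.8, 19.8, 20.1 and 17.4 in sham libraries. At day 4 Nop16 read 30.5, 25.8, 21.5, 30.7 and 24.4 scaled CPM in MI libraries, against 22.6, 20.3, 18.7, 22.6 and 18.1 in sham libraries. At day 7 Nop16 read 23.7, 21.7, 19.4, 23.8 and 20.5 scaled CPM in MI libraries, against 18.1, 23.3, 22.7, 20.4 and 17.5 in sham libraries. Its groups were apart at day 2 and overlapped at days 4 and 7, with log2 fold changes of 0.65 ± 0.089 (SE, adjusted p = 3.42e-05), 0.39 ± 0.11 (SE, adjusted p = 0.00904) and 0.091 ± 0.11 (SE, adjusted p = 0.511).

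Ebna1bp2, needed for processing of large-subunit rRNA in yeast, had the smallest difference of this group at day 4. At day 2 Ebna1bp2 read 44.9, 50.1, 40.6, 46.4 and 49.3 scaled CPM in MI libraries, against 34.3, 37.3, 42.3, 37.4 and 36.5 in sham libraries. At day 4 Ebna1bp2 read 44.9, 39.5, 38.1, 41.5 and 35.5 scaled CPM in MI libraries, against 40.3, 42.7, 34.9, 40.03 and 34.9 in sham libraries. At day 7 Ebna1bp2 read 35.7, 29.9, 38.8, 36.3 and 33.2 scaled CPM in MI libraries, against 38.2, 34.5, 42.7, 41.04 and 39.6 in sham libraries. The ranges overlapped at every day, and Ebna1bp2 rose at day 2 (0.32 ± 0.083, SE, adjusted p = 0.00499) with 0.063 ± 0.090 at day 4 and -0.18 ± 0.092 at day 7 (SE). Noc2l, which escorts pre-60S particles out of the nucleolus, rose at day 2 (0.36 ± 0.087, SE, adjusted p = 0.00355) and day 4 (0.27 ± 0.087, SE, adjusted p = 0.0163), and was -0.16 ± 0.076 (SE) at day 7. Its day 4 value was 0.17 without the libraries that held other tissue (adjusted p = 0.137). Nop2, a methyltransferase of 28S rRNA, rose at day 4 (0.27 ± 0.087, SE, adjusted p = 0.0162), with 0.29 ± 0.12 (SE, adjusted p = 0.0614) at day 2 and -0.068 ± 0.12 (SE) at day 7. That call was lost without MI day 4 replicate 2 (0.22, adjusted p = 0.0505), and without the libraries that held other tissue (0.23, adjusted p = 0.087). Ftsj3, also a methyltransferase of the pre-rRNA, rose at day 2 (0.31 ± 0.11, SE, adjusted p = 0.0381) and had 0.085 ± 0.075 and -0.089 ± 0.11 (SE) later. Its call was lost without any 1 of MI replicates 2, 3 and 4 and sham replicates 1, 2, 3 and 5 of day 2 (0.19 to 0.32, adjusted p = 0.0509 to 0.108).

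Rrs1, Noc3l, Ddx18 and Rrp1b were not called at any day in the main fits. By limma voom Rrs1 was called lower at day 7 (-0.24, adjusted p = 0.0180). With library totals alone Noc3l was called higher at day 2 (0.31, adjusted p = 0.0406). Rrp1b was then called higher at days 2 and 4 (0.35 and 0.30, adjusted p = 0.0134 and 0.04999). Rrs1, which brings 5S RNA to the large subunit, had log2 fold changes of -0.071 ± 0.075, -0.14 ± 0.10 and -0.19 ± 0.088 (SE). Noc3l, a partner of Noc2l, had 0.22 ± 0.11, 0.13 ± 0.13 and 0.088 ± 0.12 (SE). Rrp1b, a nucleolar protein of 60S assembly, had 0.25 ± 0.10, 0.13 ± 0.12 and -0.023 ± 0.15 (SE). Ddx18, an RNA helicase, had 0.10 ± 0.13, 0.068 ± 0.14 and 0.054 ± 0.15 (SE). Its pseudogene Gm16433 matches it with 99.3% identity and held 15.5 CPM against 7.53 CPM for Ddx18, so its level is uncertain too.

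**Figure D3:**
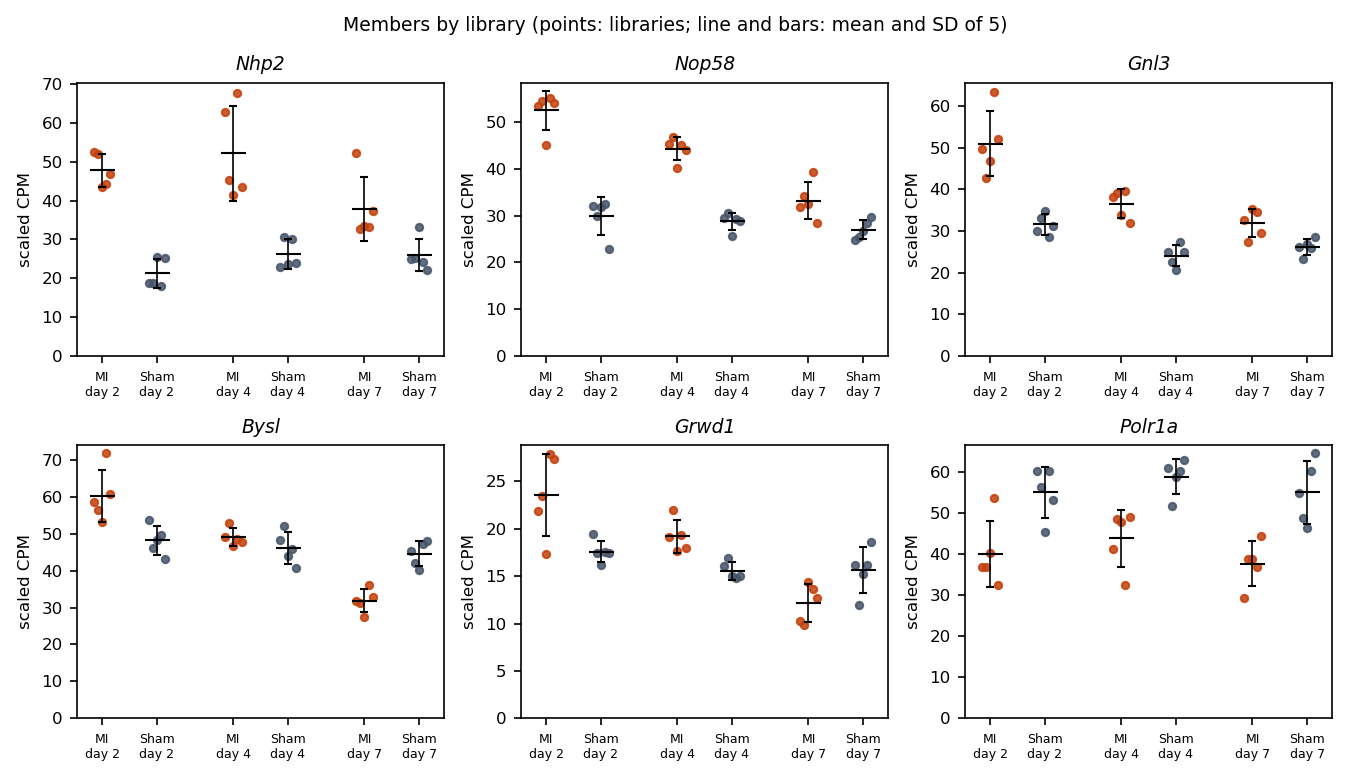
Scaled CPM of 6 members in each library, MI left of sham at each day, with the mean and SD of 5 libraries. Nhp2, Nop58 and Gnl3 are higher in MI at all 3 days, Bysl and Grwd1 are higher at day 2 and lower at day 7, and Polr1a is lower at all 3 days.

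Some members gained a call when 1 library was left out. At day 2 these were Rrp9 without MI replicate 3 or sham replicate 3 (0.32 and 0.33, adjusted p = 0.0261 and 0.0179) and Nob1 without MI replicate 3 or sham replicate 1 (0.33 and 0.31, adjusted p = 0.0149 and 0.0437). Nop2 gained one at day 2 without MI replicate 2 or sham replicate 1 (0.34 and 0.38, adjusted p = 0.0322 and 0.0199), and Rrp1b without MI replicate 3 or sham replicate 2 (0.28 and 0.29, adjusted p = 0.0397 and 0.0454). At day 4, without MI replicate 3, Ncl (0.24, adjusted p = 0.0412) and Wdr43 (0.22, adjusted p = 0.0414) were called. Gar1 was called at day 4 without MI replicate 4 or sham replicate 1 or 3 (0.43 to 0.50, adjusted p = 0.00813 to 0.0456) and Nolc1 without sham replicate 1 (0.24, adjusted p = 0.0356).

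Among the 40 members, 11 overlap another gene of at least 1 CPM on the opposite strand: Mybbp1a, Nop56, Dkc1, Nhp2, Heatr1, Rrp9, Bysl, Tsr1, Bop1, Wdr12 and Gnl3. The kit marks the strand, but the strand setting of the counting is not given in the sources used here, so reads of these 11 and of their partners may not have been told apart. Among these partners, Bysl shares its locus with the cyclin gene Ccnd3 and Bop1 with Mroh1 and Scx. Inside 7 members lie 21 snoRNA genes (Ncl, Nop56, Nop58, Dkc1, Wdr43, Tsr1 and Gnl3).

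The difference between MI and sham hearts changed between days 2 and 7 in 16 of the members. In the fits of single days the log2 fold change was lower at day 4 than at day 2 in 37 of 40 members, lower at day 7 than at day 4 in 40 of 40, and lower at day 7 than at day 2 in 40 of 40. All members were read in the same libraries, so these counts are not 40 separate outcomes, and they were not tested. The change of the MI effect itself was tested in 1 fit of all 30 libraries. From day 2 to day 7 the effect fell in 16 of 40 members, where it fell in 9.11% of all 15537 genes and rose in 10.1%. This pair of days was compared after seeing the data. It crosses the run number, so that for the change of the effect, too, day and run cannot be told apart. The median change was -0.38 over the members and 0.025 over all genes. Among those called the largest falls were in Bysl, -0.80 ± 0.12 (SE, adjusted p = 3.13e-05), Grwd1, -0.78 ± 0.17 (SE, adjusted p = 0.00182), and Rrp9, -0.67 ± 0.15 (SE, adjusted p = 0.00253). Rrp12 was not called, at -0.73 ± 0.27 (SE, adjusted p = 0.0518). Falls of the effect were called in 1 or more members of every role group but the nucleolar proteins and the transcription factors. They took in Nop58 (-0.51), Dkc1 (-0.50), Nhp2 (-0.63), Wdr43 (-0.49), Nop14 (-0.47), Nob1 (-0.50), Tsr1 (-0.43), Pes1 (-0.39) and Bop1 (-0.46). In 60S assembly they also took in Nop16 (-0.54), Ebna1bp2 (-0.47), Noc2l (-0.49) and Gnl3 (-0.40).

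**Figure D4:**
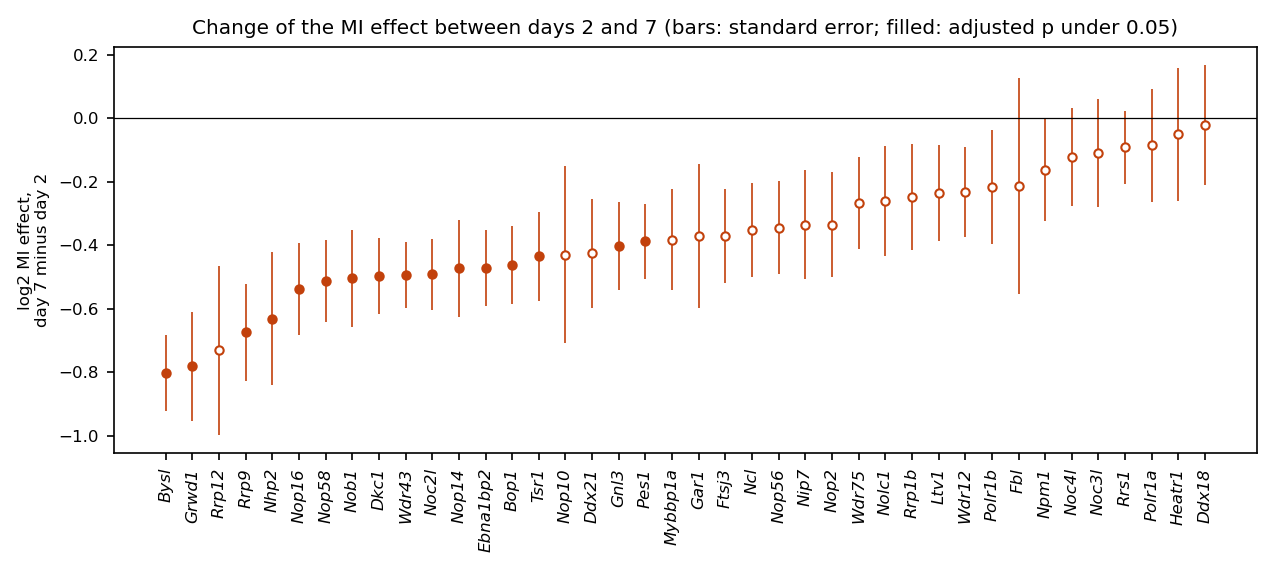
Change of the log2 MI effect of each member between days 2 and 7 (day 7 minus day 2, fit of 30 libraries), ordered by size, with standard errors as bars and filled points where the adjusted p was under 0.05. All 40 points lie below 0, from -0.80 for Bysl to -0.021 for Ddx18. Days 2 and 7 differ in run number.

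Of these 16 calls, 11 held without any single library of days 2 and 7. Gnl3 lost its call without 10 of the 20 libraries in turn (MI day 2 replicates 4 and 5, sham day 2 replicates 1, 4 and 5, MI day 7 replicate 2, and sham day 7 replicates 1, 3, 4 and 5; adjusted p = 0.0536 to 0.0883). Nhp2 lost it without any 1 of sham day 2 replicates 1, 2 and 4, MI day 7 replicates 2, 3 and 4 and sham day 7 replicate 3 (adjusted p = 0.0508 to 0.0783). Tsr1 lost it without MI day 2 replicate 4 or 5 or sham day 7 replicate 4 or 5 (adjusted p = 0.0502 to 0.0621). Nop14 lost it without MI day 2 replicate 4 or sham day 7 replicate 5 (adjusted p = 0.0648 and 0.0679), and Pes1 without sham day 7 replicate 5 (adjusted p = 0.051). Without the libraries that held other tissue 15 members were called, all lower, where 6.46% of all genes were lower and 7.32% higher. Nhp2, Nop16 and Gnl3 were not among these members (adjusted p = 0.392, 0.0922 and 0.0953).

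Between neighbouring days fewer members changed. From day 4 to day 7 only Bysl was called among the 40 members (-0.57 ± 0.12, SE, adjusted p = 0.0152), where 1.02% of all genes were, 0.702% higher and 0.315% lower. Its call was lost without the libraries that held other tissue, when 0 members were called. With any 1 of MI day 4 replicate 5, MI day 7 replicates 3 and 5 and sham day 7 replicate 2 left out, 2 members were called. From day 2 to day 4 edgeR called 0 members, where 4.8% of all genes were called, 2.51% higher and 2.29% lower. Of the 40, 7 had an unadjusted p under 0.05 there, and DESeq2 and limma voom also called 0.

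Within the sham arm, 3 members were higher (Ncl, Pes1 and Rrs1) and 4 lower (Npm1, Nop10, Wdr75 and Gnl3) at day 4 than at day 2, where 11.7% of all genes were higher and 12.7% lower. Npm1 had the largest of these differences, -1.40 ± 0.12 (SE, adjusted p = 9.57e-11), and it was also lower in the MI arm, -1.44 ± 0.11 (SE, adjusted p = 1.8e-11). Both cross the run number. From day 4 to day 7, which share a run number, edgeR called 0 members in the sham arm, where 0.122% of all genes were called. Of the 40, 3 had an unadjusted p under 0.05 there. DESeq2, which gave 35 of the 40 an adjusted p, and limma voom also called 0. In the MI arm 14 members fell at day 7 against day 4, where 6.29% of all genes fell and 6.26% rose. Bysl (-0.62 ± 0.085, SE, adjusted p = 1.75e-05) and Grwd1 (-0.65 ± 0.12, SE, adjusted p = 0.000773) fell most, and Nop56 (-0.45), Nop58 (-0.41), Dkc1 (-0.38), Rrp9 (-0.42), Noc4l (-0.39) and Nop2 (-0.41) were among the others. Without MI day 4 replicate 2, 8 members were called, all lower, where 575 of 15691 genes were lower and 570 higher. At day 4 against day 2 the MI arm had 15 members lower and 1, Pes1, higher, where 22% of all genes were lower and 24% higher (46% in all), again across the run number. With library totals alone the median of all genes moved to 0.13 in that comparison, and the split was 7 members lower and 4 higher, where 16.4% of all genes were lower and 30.1% higher.

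Summed over the 40 members, MI libraries held 1561 to 2028 scaled CPM at day 2, 1516 to 1649 at day 4 and 1255 to 1469 at day 7. Sham libraries held 1291 to 1402, 1324 to 1495 and 1257 to 1487 scaled CPM at these days. The sums were apart at days 2 and 4 and overlapped at day 7, and no p is given for a sum over chosen genes. Ncl alone made up 317 ± 42.6 scaled CPM in MI and 239 ± 17.8 in sham libraries at day 2 (SD, n = 5).

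Other genes of the pathway were taken from lists of known factors, also chosen with earlier results of these data known. Of 125 other factors tested at each day, 45 (36%) were higher and 1 (0.80%) lower at day 2, where 24.1% and 22.2% of all genes were. At day 4, 25 (20%) were higher and 9 (7.2%) lower, where 27.5% and 25.2% of all genes were, and at day 7, 11 (8.8%) were higher and 21 (16.8%) lower, where 28.4% and 26.6% of all genes were. Their share called higher thus lay above that of all genes at day 2 and below it at days 4 and 7, and their share called lower lay below it at each day. Their medians were 0.20, 0.074 and 0.0031. The 5 lists that follow share 1 gene, which stands in 2 of them and was not called. Of 42 other small-subunit factors, 18, 5 and 2 were higher and 0, 0 and 8 lower at days 2, 4 and 7. Utp18, a processome subunit, averaged 28.4 ± 3.01 scaled CPM in MI and 16.8 ± 1.81 in sham libraries at day 2 (SD, n = 5), with log2 fold changes of 0.78, 0.50 and 0.16 at days 2, 4 and 7, the last not called. Rrp7a, another processome protein, rose at days 2 and 4 (0.55 and 0.51). Krr1 and Pwp2, also of the processome, fell at day 7 (-0.36 and -0.38).

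Of 49 other large-subunit factors, 19, 14 and 6 were higher and 1, 5 and 6 lower. At days 2, 4 and 7, 24.1%, 27.5% and 28.4% of all genes were higher and 22.2%, 25.2% and 26.6% lower. Ppan and Eif6, which act in 60S assembly and in keeping the subunits apart, rose at all 3 days, Ppan by 0.92, 1.02 and 0.46 and Eif6 by 0.84, 0.74 and 0.60. Wdr18, of a 60S maturation complex, fell at all 3 days (-0.21, -0.36 and -0.77), and Gnl2, a GTPase of 60S assembly, fell at days 4 and 7 (-0.31 and -0.33). Of 11 other RNA polymerase I genes, 2, 2 and 1 were higher and 0, 2 and 2 lower, and beside these shares nothing is read from so few genes. Taf1d rose at all 3 days (1.06, 0.73 and 1.09), Polr1c at day 4 (0.39), and Rrn3, the initiation factor of the polymerase, fell at days 4 and 7 (-0.32 and -0.47), as did Taf1a (-0.80 and -0.81). Rrn3 averaged 50.05 ± 5.28 scaled CPM in MI and 69.3 ± 6.19 in sham libraries at day 7 (SD, n = 5).

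Of 13 RNA exosome genes, 5, 3 and 2 were higher and 0, 1 and 2 lower, with Exosc8 higher at all 3 days (0.47, 0.35 and 0.46), Exosc2 at days 2 and 4 (0.51 and 0.39) and Exosc10 lower at days 4 and 7 (-0.26 and -0.29). Exosc4 was not called. Of 11 snoRNP assembly factors, 1, 1 and 0 were higher and 0, 1 and 3 lower. Between 24.1% and 28.4% of all genes were higher and between 22.2% and 26.6% lower at these days, and nothing is read from lists this small. Ruvbl1 rose at day 2 (0.37) and Nufip1 at day 4 (0.30), Rpap3 fell at days 4 and 7 (-0.36 and -0.37), and Shq1 was not called.

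The cytosolic ribosomal proteins, which are the building blocks the factors assemble, differed from sham in one direction at every day. Of 76, 72 and 74 genes tested at days 2, 4 and 7, 59, 58 and 56 were called higher and the others were not called. Of all genes, 24.1%, 27.5% and 28.4% were called higher at these days. The medians of the ribosomal protein genes were 0.49, 0.62 and 0.75. Rpl12 averaged 7.98 ± 2.97 scaled CPM in MI and 2.65 ± 0.602 in sham libraries at day 4 (SD, n = 5), a log2 fold change of 1.60. Rps27a averaged 3.48 ± 1.66 and 1.26 ± 0.481 scaled CPM at that day (SD, n = 5), a log2 fold change of 1.47, so both were read at low levels. Rpl36 was not called at day 4 (0.083). These genes have many near-identical pseudogenes, so their levels are uncertain. Their values under other scalings, or without the libraries that held other tissue, were not examined. From day 2 to day 7 the change of the MI effect had a median of 0.25 over 78 ribosomal protein genes and of -0.38 over the 40 members. The difference between these medians was not tested. It crosses the run number, so that day and run cannot be told apart here either.

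**Figure D5:**
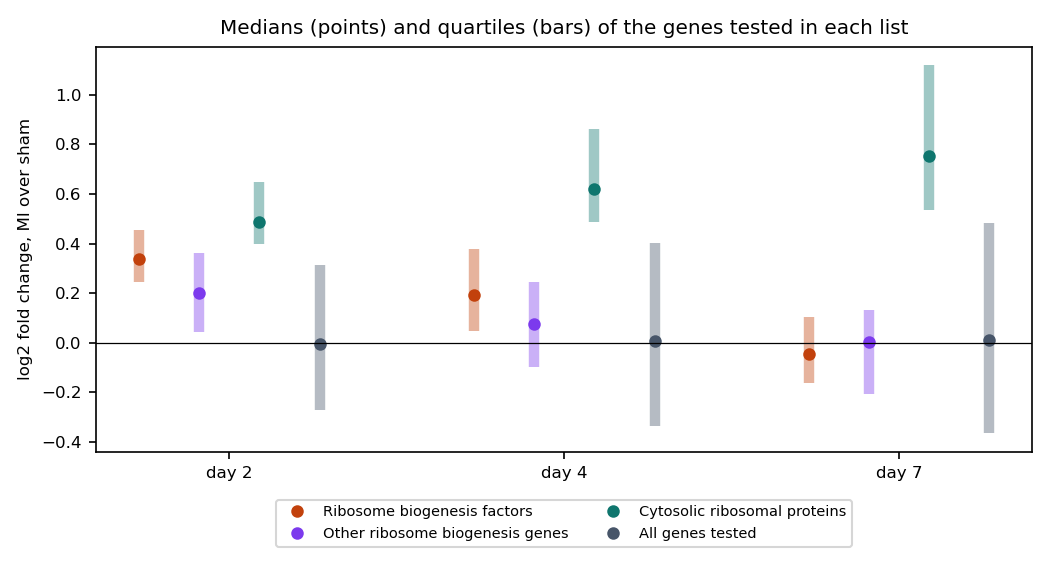
Median log2 fold change of MI over sham at days 2, 4 and 7 over the genes tested in each list, with the quartiles as bars, for the 40 members, 125 other ribosome biogenesis genes, the cytosolic ribosomal proteins and all genes tested. The members' median goes down over the days to -0.046 and that of the ribosomal proteins goes up to 0.75. Day 2 differs from days 4 and 7 in run number.

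Of the Myc network genes tested, 4 of 11, 4 of 11 and 5 of 12 were higher and 2, 3 and 2 lower at days 2, 4 and 7. Between 24.1% and 28.4% of all genes were called higher and between 22.2% and 26.6% lower at these days, and nothing is read from so few genes. Myc averaged 21.1 ± 3.62, 18.2 ± 2.44 and 12.02 ± 4.47 scaled CPM in MI libraries at days 2, 4 and 7, against 4.70 ± 1.53, 4.12 ± 0.972 and 3.23 ± 0.381 in sham libraries (SD, n = 5). Its log2 fold changes were 2.17, 2.15 and 1.89. Mxd3, a partner of Max that represses transcription, rose at all 3 days (2.14, 2.56 and 2.46). Mxi1, also a repressor, fell at all 3 days (-0.35, -0.36 and -0.52), and Mnt fell at day 4 (-0.26). No test links Myc to the members here.

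Markers of several other cell types also differed between MI and sham hearts. At days 2, 4 and 7, 24.1%, 27.5% and 28.4% of all genes were called higher and 22.2%, 25.2% and 26.6% lower. All 8 markers of cycling cells were higher in MI hearts at each day, with medians of 1.58, 2.65 and 2.47, and summed to 42.2 to 130.4, 201 to 323 and 136 to 195 scaled CPM in MI libraries, against 15.5 to 44.8, 28.6 to 63.4 and 19.3 to 41.1 in sham libraries at days 2, 4 and 7. Macrophage and monocyte markers were higher in 7, 8 and 8 of 8 cases, and summed to 609 to 1119.7, 1460.2 to 1800.3 and 1008 to 2189 scaled CPM in MI libraries, against 466 to 556, 431 to 709.8 and 382 to 757 in sham libraries. Cardiomyocyte markers were lower in 6, 8 and 8 of 8 cases. Fibroblast markers were higher in 1, 4 and 7 and lower in 2, 1 and 0 of 7 cases, with sums of 1731 to 2685, 6122 to 10926 and 8139 to 15988 scaled CPM in MI libraries, against 1540.3 to 3285, 2507 to 4940.3 and 2163 to 4455 in sham libraries. Neutrophil markers were higher in 6 of 6, 5 of 5 and 3 of 3 cases tested. Endothelial markers were lower in 3, 2 and 2 of 6, and beside the shares of all genes nothing is read from these few. No marker of these lists was at 0 in every library of a group. Erythroid markers were higher in 4, 0 and 5 of 5 cases, with medians of 413, 1768 and 2725 scaled CPM in MI libraries, against 204, 1207 and 1132 in sham libraries at days 2, 4 and 7. The 5 markers of fast skeletal muscle summed to 8.76 to 14.3, 12.2 to 23.4 and 27.03 to 1273 scaled CPM in MI libraries, against 1.27 to 2.36, 1.12 to 3.47 and 1.49 to 3.33 in sham libraries. In the MI libraries other than day 7 replicate 4 most of that sum was Tnnt3. Tnnt3 alone read 7.96 to 13.1, 9.66 to 22.4 and 24.96 to 531 scaled CPM in MI libraries, against 0.476 to 1.23, 0.561 to 1.96 and 0.270 to 2.29 in sham libraries. The defining genes Myh1 and Myh4 were at 0 in every MI library of day 2. Adipocyte markers were called in 1 case, lower at day 7. Their part in the members' differences was not tested.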

How the data were processed

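RNA from mouse hearts was sequenced as 150 bp paired-end reads of directional libraries, per the labels' protocols. The authors deposited raw counts per Ensembl gene, made with bcl2fastq 2.20.0 and featureCounts on GRCm38, per the submitters' processing notes. For the aligner, the annotation release and the strand setting of the counting nothing was stated in what was used here, and reads shared by near-copies or by genes on opposite strands may be counted for either. The members and all gene lists were chosen with earlier results of these data known. Identifiers were named through GENCODE vM21, which named 97.5% of them. 278 of 283 genes of the other lists matched, and Polr1f, Polr1g, Polr1h, Riok2 and Exosc6 were not analysed here.

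Groups were taken from the labels. Each day was fitted alone with edgeR 4.0.16 in R 4.3.3 (filterByExpr with a minimum count of 10 and total of 15, TMM factors, robust quasi-likelihood test, 2-sided, Benjamini-Hochberg over all genes), and differences between days in 1 fit of 30 libraries. All 40 members passed the filter at each day. A level of 3 counts corresponds to 0.213 to 0.383 CPM, which covers counting error only. The fits were tested on simulated data. Alternatives were median-ratio factors, library totals, DESeq2 1.42.0, limma 3.58.1 voom, other filters, a fold-change threshold, other sets of libraries, near-copies (blastn 2.17.0) and a replicate block. Values in every library are given for the members with the largest and smallest absolute change at day 4 in each role group, 5 members set by name, up to 4 further members with the lowest adjusted p at day 4, and members called lower at any day. Of each other pathway list, the 2 highest and 2 lowest changes at day 4 are named, except 1 gene that is not reported here. Promoter windows came from RefSeq, GRCm38.p6.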

Additional observations from a re-analysis of the deposited data

Results flagged for a closer look

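Of 240 sets of 5 libraries (40 members in 6 groups), 16 held a library farther from the others than Dixon's 95% limit of 0.71 of the range, where chance gives about 1 in 20, or 12. At day 2, MI replicate 3 stood apart for Nop58 (45.1 scaled CPM), Wdr75 (22.7) and Nop16 (26.2), and MI replicate 4 for Gar1 (15.3), Nop14 (41.4) and Noc3l (17.4). Sham replicate 5 stood apart for Nop58 (22.8) and sham replicate 4 for Ftsj3 (43.0) at that day. At day 4, MI replicate 2 stood apart for Nop2 (33.8) and Rrs1 (38.0) and MI replicate 5 for Nolc1 (42.0). At day 7, MI replicate 1 stood apart for Nhp2 (52.3), MI replicate 3 for Heatr1 (26.5) and MI replicate 5 for Tsr1 (19.4). Sham replicate 3 of day 7 stood apart for Nhp2 (33.2) and Heatr1 (10.3), and it is 1 of the libraries with lung transcripts.

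The difference between MI and sham hearts itself differed between days, by the test of the difference in the fit of 30 libraries. From day 4 to day 7, which share a run number, this was so for Bysl (-0.57). Days 2 and 7 do not share one. From day 2 to day 7 it was so for Bysl (-0.80), Grwd1 (-0.78), Rrp9 (-0.67), Nhp2 (-0.63), Nop16 (-0.54), Nop58 (-0.51), Nob1 (-0.50), Dkc1 (-0.50), Wdr43 (-0.49), Noc2l (-0.49), Nop14 (-0.47), Ebna1bp2 (-0.47), Bop1 (-0.46), Tsr1 (-0.43), Gnl3 (-0.40) and Pes1 (-0.39), all on the log2 scale.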

How the results depend on the processing

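Tested against a fold change of 1.5, 2 members were called at day 2 (2 higher, 0 lower), 1 at day 4 (1 higher, 0 lower) and 0 at day 7 (0 higher, 0 lower), where 8.32%, 14.9% and 18.9% of all genes were called. That test called 0 members for the change of the MI effect from day 4 to 7 and from day 2 to 7, 1 for sham and 1 for MI at day 4 against day 2, and 0 for MI at day 7 against day 4. With library totals alone, 31 were higher and 1 lower at day 2, where 30.1% of all genes were higher and 16.2% lower. At day 4, 27 were higher and 0 lower, where 38.6% of all genes were higher and 15.6% lower. At day 7, 9 were higher and 2 lower, where 39.8% of all genes were higher and 16.8% lower. With no filter on low counts, 6 were called at day 7, 2 higher and 4 lower, where 15.8% of all genes were higher and 14.4% lower. Without the libraries that held other tissue, 5 were called at day 7 (2 higher, 3 lower), where 33.4% of all genes were called. There were 0 for the change of the effect from day 4 to 7, and 4 for sham at day 4 against day 2. Of all genes, 0.0563% and 14.2% were called there. The change from day 4 to 7 was called in 2 members with median-ratio factors, 3 by DESeq2 and 3 by limma voom. Of all genes, 1.07%, 2.78% and 1.91% were called there. At day 7 limma voom called 4 members higher and 9 lower, where 30.7% of all genes were higher and 29.4% lower. The lower calls took in Rrs1, Ebna1bp2 and Noc2l (adjusted p = 0.0180, 0.0310 and 0.0283). With only the groups compared in the fit, 8 members were called for MI at day 7 against day 4, where 5.88% of all genes were called. With near-copies added, 2 were lower at day 4, where 25.2% of all genes were lower, and Nip7 turned to -0.20 at that day. The sequences added include Snhg14, which need not be a copy of Nip7. With pseudogenes alone, a setting added after seeing the data, the sign of Nip7 held.

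Leaving out 1 library at a time gave 2 to 4 members higher and 4 to 6 lower at day 7. It gave 1 to 2 called for the change from day 4 to 7, and 8 to 15 for MI at day 7 against day 4. With all libraries kept, 28.4% of all genes were higher and 26.6% lower at day 7. Called for that change and that comparison were 1.02% and 12.6% of all genes. With the replicate number as a block, 26 members were higher at day 2, 15 at day 4 and 3 at day 7, where 25%, 26.8% and 26.3% of all genes were. For the change from day 2 to 7 it called 18 members, where 18.7% of all genes were called. Deviations of same-numbered MI and sham libraries correlated between -0.22 and 0.24, over 0.1 in 3, 1 and 2 of 5 pairs at days 2, 4 and 7, and 1 or 2 of 5 MI libraries a day correlated best with their own number, so that the samples share only a number. The block dropped Tsr1 and Pes1 at day 4 (adjusted p = 0.0576 and 0.0578) and Nop58 and Nob1 at day 7 (adjusted p = 0.0503 and 0.0599) and added Mybbp1a and Nop2 at day 2 (adjusted p = 0.0244 and 0.0454). At 3 counts a library reads 0.213 to 0.383 CPM, below every member's level. In simulated data the test recovered 63%, 27% and 24% of log2 changes of 0.5 at days 2, 4 and 7. Of its calls, 6.21%, 7.14% and 5.26% were false. The simulation changed 100 genes by 0.5 and 100 by 1, whereas 46.3%, 52.7% and 55% of all genes were called in the data. Its adjusted p was therefore a stricter cut, and these figures do not give the recovery for the members.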
